A study of Homo sapiens with 8 samples.

Results

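Wnt signalling was followed through 43 genes that were chosen by name as components or targets of the pathway. A probe with the accession of the gene was found for 41 of them, and 35 were bright enough to be tested, among 19404 gene names tested on the arrays. RNA came from H460, a human non-small-cell lung cancer (NSCLC) cell line, and from a pair of populations derived from it. H460C cells are the CSCs (cancer stem cells) of the study, grown without attachment in DMEM/F12 medium with 2 mM glutamine, 5 mM Hepes, 0.4% BSA, N2 supplement, EGF and FGF-b. H460R cells are cisplatin-resistant cells, obtained by 72 hours of treatment with 0.5 µg/ml of cisplatin and then kept in drug-free RPMI medium with 10% foetal bovine serum, the medium that H460 cells also received. The medium and the attachment of the cells thus set H460C apart from the other cells as much as the selection did, and these cannot be told apart. Each population had 2 RNA samples, each hybridized against H460 RNA on 2 arrays with the dyes swapped, which gave 8 arrays, 4 for each population.

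Wnt proteins are secreted lipid-modified ligands that bind Frizzled receptors. With the coreceptors LRP5 and LRP6 they stop a cytoplasmic complex of AXIN, APC and the kinase GSK3B from marking beta-catenin for degradation, so that beta-catenin reaches the nucleus and acts with TCF/LEF factors on target genes. Some Wnt ligands act instead through ROR receptors without beta-catenin. Several targets, among them AXIN2, RNF43, NKD1, LGR5 and DKK1, are themselves brakes or sensors of the pathway, and Wnt activity is widely studied in stem cells of normal epithelia and of tumours.

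Values are log2 ratios of a population over H460 cells, so that 1 is a doubling and 0 is the H460 level. A gene was read at its brightest tested probe. Each population was set against H460 with Rank Products, calling genes at an FDR of 0.05, and H460C was set against H460R with limma at an adjusted p of 0.05. The RNA samples of H460C differed by no more than the noise between hybridizations: the difference between them did not recur in the other dye orientation (r = -0.00967 across probes, against 0.263 for H460R). H460C was therefore counted as 1 sample and is given without an SD. Rank Products still took both H460C ratios, so that its FDRs in H460C carry the spread between hybridizations alone. In limma the spread came from the H460R samples and from all genes through the prior, and H460C was assumed to vary alike. H460R is given as mean ± SD (n = 2). The labels name 1 H460 RNA, so its own spread enters no test. The arrays of each population lay on a slide of their own, and slide and population cannot be told apart in any difference between H460C and H460R.

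Most of the pathway could be measured in all 3 cell populations. Of the 35 tested members, 4 (WNT11, ROR2, RNF43 and TCF7L1) met the detection rule through H460C alone, which favours higher values in H460C. The others met it through more than 1 RNA. For AXIN2 and TCF7 these were H460C and H460R, with 0 of 8 H460 channels well above background, which favours ratios above 0. No member probe was saturated. LGR5, the receptor known from intestinal stem cells, SFRP1, a secreted Wnt inhibitor, and NKD1, a feedback inhibitor, were well above background on 0 of 8 arrays in any channel. LEF1, TCF7L2 and WNT7B were not tested either, since each of their probes was well above background on at most 3 of the 8 H460 channels and on at most 2 arrays of a population. No probe was matched for ZNRF3 and DVL1.

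**Figure D1:**
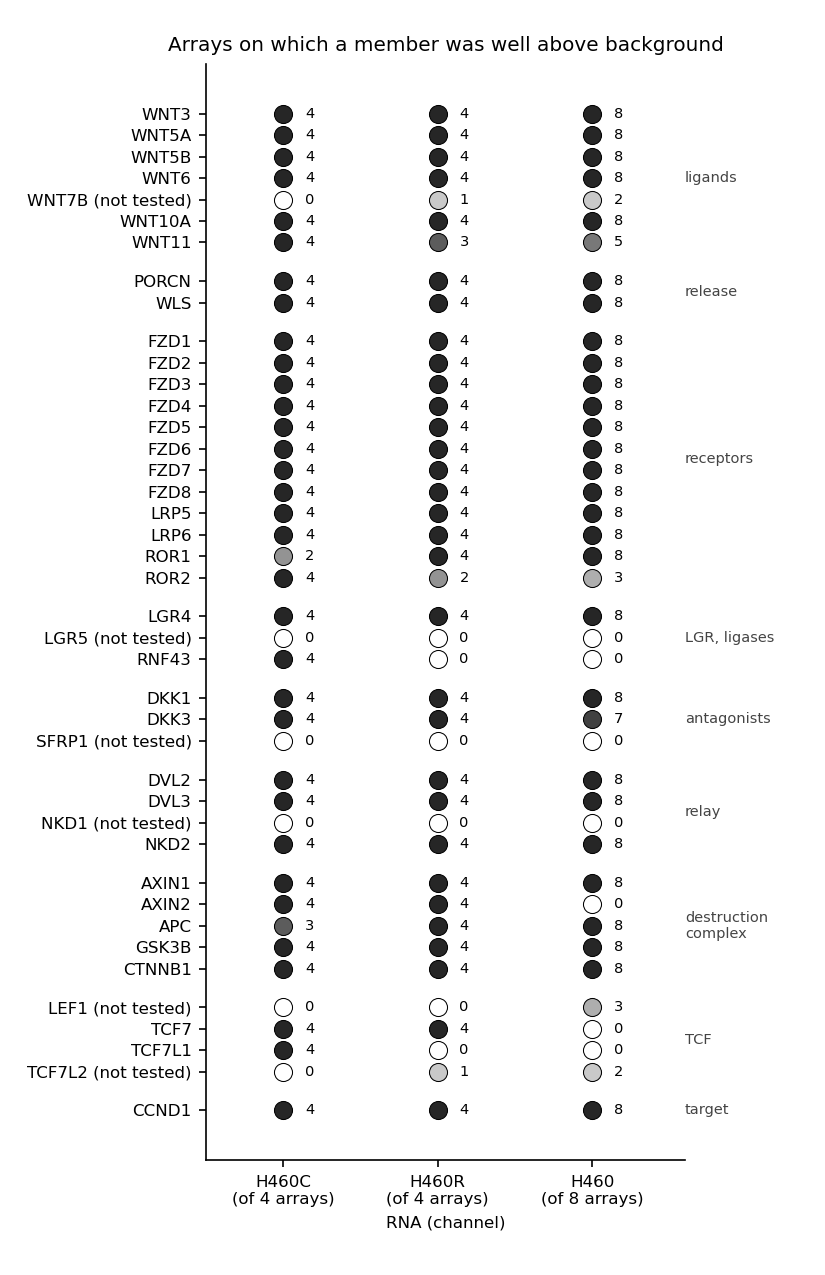
Number of arrays on which the read probe of each of the 41 members on the arrays was well above background, out of 4 for H460C, 4 for H460R and 8 for H460 (darker circles stand for a larger share, the number is printed beside it). RNF43 and TCF7L1 were detected on 4 arrays in H460C and on 0 in H460R and H460, while AXIN2 and TCF7 were detected in both populations and on 0 of 8 arrays in H460.

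In comparison to H460 cells, no member passed Rank Products in H460C and 2 passed in H460R. The FDR of 0.05 was reached in H460C by 0.557% of all genes in the upward and 0.557% in the downward direction, and by 0 of 35 members. At an unadjusted p below 0.05, Rank Products marked 8 members in H460C (5 higher and 3 lower), beside 19.4% of all genes, and limma against 0 called 20, 10 higher and 10 lower, beside 30% and 27.1% of all genes. In H460R, DKK1 was higher, with 0.479% of all genes called in that direction, and FZD4 was lower, with 0.474%. There limma against 0 called 13 members as higher and 12 as lower, beside 36.3% and 31.4% of all genes. By size alone, past 1 with the same sign on the 4 arrays, H460C had WNT3 above H460 (1 of 35, against 4.94% of all genes) and FZD8, ROR1 and CTNNB1 below it (3 of 35, against 3.22%). By the same measure H460R had DKK1 and CCND1 above (2 of 35, against 3.47%) and FZD4 and WNT5B below (2 of 35, against 1.32%).

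The members showed no common shift. Their median log2 ratio was -0.02 in H460C and 0.06 in H460R, beside -0.00 and 0.01 for all genes, and the median size of the ratio was 0.343 in H460C and 0.295 in H460R, beside 0.274 and 0.248 for all genes. H460C and H460R differed from each other at 20 of the 35 members, 10 higher in H460C and 10 higher in H460R. Of the 10 higher in H460C, 3 (ROR2, RNF43 and TCF7L1) met the detection rule through H460C alone, which favours that direction. This test called 22.4% of all genes as higher in H460C and 23.6% as higher in H460R, so that calls among the members are read here by their size. With a difference past 1 as well, 3 members were higher in H460C (WNT3, FZD4 and NKD2, against 3.23% of all genes) and 4 were higher in H460R (FZD8, ROR1, DKK1 and DKK3, against 4.55%). A called difference with opposite signs on all arrays of the populations was found at 3 members higher in H460C (FZD4, ROR2 and NKD2, against 4.14% of all genes) and 3 higher in H460R (DKK1, ROR1 and LGR4, against 6.1%).

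**Figure D2:**
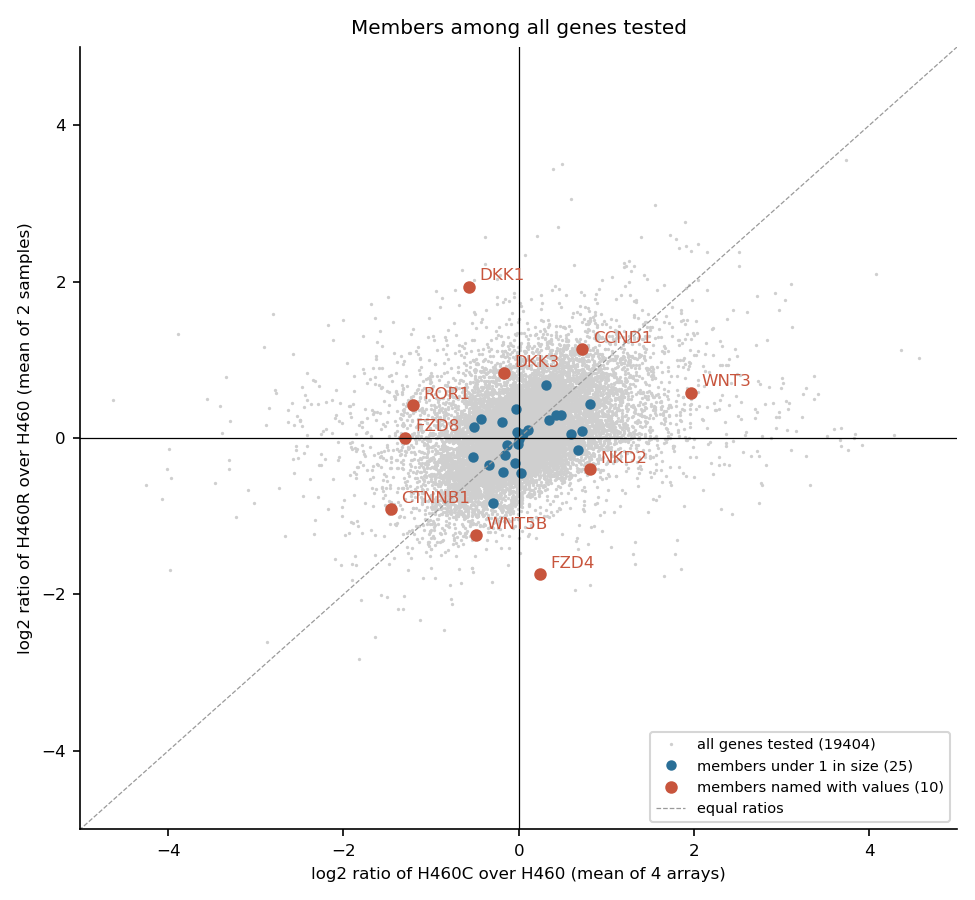
Log2 ratio over H460 in H460C (horizontal axis, mean of 4 arrays) against that in H460R (vertical axis, mean of 2 samples) for the 19404 genes tested (grey), the 25 members that stayed under 1 in size (blue) and the 10 described with full values (red). WNT3 stands apart along the H460C axis, DKK1 and FZD4 along the H460R axis, and 1 gene lies outside the axes.

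Among the ligands, WNT3 was the member with the highest ratio in H460C. WNT3 (NM_030753), a ligand that signals through beta-catenin, was measured at 2.53 and 1.36 on the arrays of the first H460C sample and at 2.50 and 1.46 on those of the second (H460C in Cy3, then in Cy5). The H460R arrays gave 0.86 and 0.34, then 1.00 and 0.12. All ratios were above 0, and the lowest in H460C was higher than the highest in H460R. The means were 1.96 in H460C, or 3.90-fold, and 0.58 ± 0.027 in H460R. WNT3 missed the FDR in H460C (0.0735) and differed between the populations by 1.38 (SE 0.093, adjusted p = 2.56e-05).

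WNT5B, a ligand mostly tied to signalling without beta-catenin, was low in H460R. The H460R arrays gave -1.07, -1.32, -1.19 and -1.41 and the H460C arrays -0.41, -0.44, -0.34 and -0.76. All 8 ratios were below 0, with no overlap between the populations. The H460R mean of -1.25 ± 0.074 stood just outside the FDR (0.0528). H460C and H460R differed by 0.76 (SE 0.098, adjusted p = 0.000606). With the software's own log ratio the H460R value was -2.06, which passed the FDR, and the difference 1.19.

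The other ligands stayed closer to H460. WNT5A, WNT10A and WNT11 lay between -0.08 and 0.49, and none of them differed between the populations at the probe read. WNT6 split by dye, with 1.02 and 0.96 on the arrays with H460C in Cy3 and -0.34 and -0.40 on those with H460C in Cy5, and its mean of 0.31 thus describes neither. Dimmer second probes of WNT6 and WNT11 gave differences of 0.60 and 0.87 in favour of H460C that passed limma (adjusted p = 0.0015 and 0.00032), unlike the probes read. That WNT11 probe met the detection rule through H460C alone, which favours this direction. It was well above background on 1 of 4 arrays in H460R and on 0 of 8 H460 channels. PORCN, the acyltransferase that adds the lipid to Wnt proteins, stood at 0.00 in H460C and -0.02 in H460R, and WLS, the carrier that takes them to the cell surface, at -0.52 and -0.24.

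**Figure D3:**
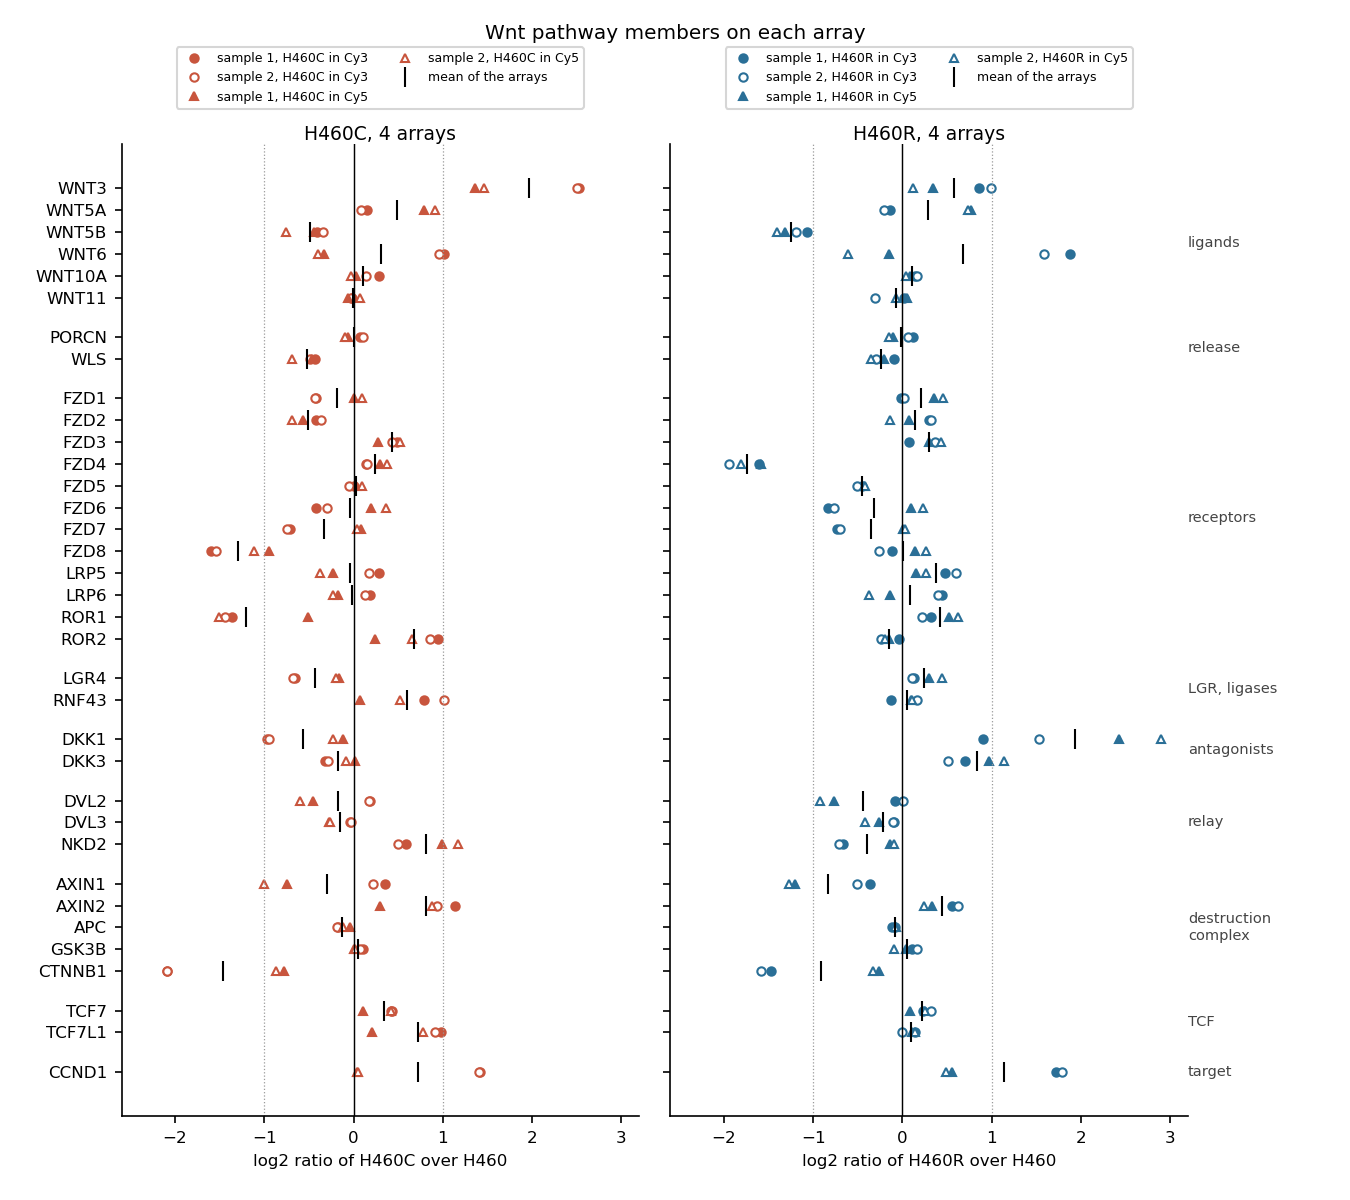
Log2 ratio over H460 of the 35 tested members on each of the 4 H460C arrays (left) and the 4 H460R arrays (right), with circles for arrays in which the population was labelled with Cy3 and triangles for Cy5, filled for the first and open for the second RNA sample, black ticks for the mean and dotted lines at -1 and 1. DKK1 and FZD4 have the widest shifts in H460R, WNT3 and CTNNB1 in H460C, and several members, such as WNT6, AXIN1, CTNNB1 and CCND1, separate by dye more than by sample.

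The 12 receptors and coreceptors differed between the populations in both directions. FZD4 (NM_012193), the Frizzled receptor known from retinal vessel growth, was the member with the lowest ratio in H460R. Its H460R arrays gave -1.61, -1.59, -1.94 and -1.81, and its H460C arrays 0.14, 0.30, 0.15 and 0.37. The signs were opposite in the populations on every array. FZD4 fell in H460R to a mean of -1.74 ± 0.20, or 0.300 of the H460 level (Rank Products FDR 0.00857). Between H460C and H460R it differed by 1.97 (SE 0.127, adjusted p = 2.01e-05), or 3.93-fold. A dimmer second FZD4 probe was at -0.51 in H460R and -0.10 in H460C, with a difference of 0.41 (adjusted p = 0.00843), and with the mean of both probes FZD4 in H460R (-1.12) no longer passed the FDR and the difference was 1.19.

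FZD8 and ROR1 had the opposite order. FZD8, a Frizzled receptor also reported in lung tumours, was measured at -1.59, -0.95, -1.54 and -1.11 in H460C and at -0.12, 0.14, -0.26 and 0.26 in H460R. Every H460C array was below every H460R array, and the H460R arrays lay on both sides of 0. The H460C mean was -1.30 (FDR 0.139) and the H460R mean 0.00 ± 0.0062. FZD8 differed between the populations by -1.30 (SE 0.093, adjusted p = 3.28e-05).

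ROR1, a receptor tyrosine kinase-like protein that binds WNT5A, gave -1.36, -0.52, -1.44 and -1.50 in H460C and 0.32, 0.52, 0.22 and 0.62 in H460R. Its signs were opposite in the populations on every array. ROR1 was well above background on 2 of 4 arrays in H460C, so that the mean of -1.21 (FDR 0.173) rests in part on dim spots, and the software's own log ratio put it at -3.88. The difference was -1.62 (SE 0.093, adjusted p = 1.14e-05), and -4.64 with the software's log ratio. The SE is small beside the gap between the H460C samples, which were at -0.94 and -1.47. Its relative ROR2, which also serves WNT5A, had the reverse order, at 0.67 in H460C and -0.15 ± 0.089 in H460R, with a difference of 0.83 (adjusted p = 0.000452). ROR2 met the detection rule through H460C alone, which favours this order. It was well above background on 0 of the 4 H460 channels beside H460C and on 3 of 4 beside H460R. By its mean signals it was 1.59-fold above H460 in H460C (FDR 0.557), taken as a bound for a dim gene. Such a bound sets the mean signal of the brighter RNA against the signal of the dimmer one. Where the lowest signal called well above background on that array was higher, that signal was used instead. Otherwise the bound equals the mean ratio, as it did for ROR2. The mean ROR2 signal of H460 was 106 beside H460C and 115 beside H460R. The bound allows for no spread between arrays, and single ROR2 arrays in H460C gave log2 ratios from 0.24 to 0.94. With the software's own log ratio ROR2 was at 2.24 in H460C and -0.84 in H460R.

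Among the other receptors, FZD5 differed in favour of H460C by 0.47 (adjusted p = 0.00446), as it did at 3 of 3 probes. FZD1, FZD2 and LRP5 differed in favour of H460R, by 0.39, 0.65 and 0.41 in size (adjusted p = 0.0115, 0.00124 and 0.0122), and a dimmer FZD1 probe did not share the difference (-0.04, adjusted p = 0.779). FZD3, FZD6, FZD7 and LRP6 did not pass limma, with differences from -0.10 to 0.28. In all, 3 receptors were higher in H460C, 5 were higher in H460R and 4 were not called, beside the 22.4% and 23.6% of all genes called in these directions. Of the 3 higher in H460C, ROR2 met the detection rule through H460C alone, which favours that direction.

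Both tested antagonists, of 3 listed, were higher in H460R than in H460C, a direction in which limma called 23.6% of all genes. DKK1 (NM_012242), which binds LRP5 and LRP6 and keeps them from Wnt ligands, was the member with the highest ratio in H460R. The H460R arrays gave 0.90 and 2.42 for the first sample and 1.53 and 2.90 for the second (H460R in Cy3, then in Cy5). The H460C arrays gave -0.97, -0.12, -0.94 and -0.23. Every H460R array was above 0 and every H460C array below it. DKK1 rose in H460R to 1.94 ± 0.39, or 3.83-fold (Rank Products FDR 0.0204), and its mean in H460C was -0.57 (FDR 0.556). The difference was -2.50 (SE 0.197, adjusted p = 5.32e-05), or 5.68-fold.

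The DKK1 ratio also depended on the dye, and with the arrays that carried H460R in Cy3 alone the mean of 1.22 did not pass the FDR. DKK1 and FZD4 were the 2 members whose H460 channel itself differed between the slides by more than the 95th percentile of all genes (0.641 on the log2 scale, after scaling between arrays). The H460 level of DKK1 was 0.96 higher beside H460C than beside H460R, and that of FZD4 was 0.91 higher. These gaps came from the H460 channel in Cy5, where they were 2.62 for DKK1 and 1.85 for FZD4, while in Cy3 they were -0.70 and -0.04. Large gaps in a single dye were not limited to these genes. PORCN, with ratios of 0.00 in H460C and -0.02 in H460R, had gaps of 1.59 in Cy5 and -1.46 in Cy3. Across all genes the gaps in Cy3 and in Cy5 had a correlation of r = -0.036. Read from the channel of the populations alone, the signal of H460C minus that of H460R was -1.55 for DKK1 and 2.88 for FZD4, with the same signs as the differences of the ratios. The part of the H460 channel in the calls was not tested.

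DKK3, a member of the same family that does not act on LRP6 as DKK1 does, lay on the same side with a smaller ratio. Its H460R arrays gave 0.71, 0.97, 0.51 and 1.14 and its H460C arrays -0.32, 0.01, -0.29 and -0.08, with no overlap. The mean was 0.83 ± 0.0088 in H460R (FDR 0.384) and -0.17 in H460C. The difference was -1.005 (SE 0.093, adjusted p = 0.000118). With the software's log ratio the H460R value was 1.81 and the difference -2.24. The other DKK3 probes were too dim to be tested and gave differences of -0.12 and -0.12.

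The bases just before the start are shown for DKK1 and FZD4, the members called in H460R, and for WNT3 and FZD8, a ligand and a receptor past 1 in H460C, as RefSeq places them on GRCh38.p14. Each line gives 100 bases of the coding strand, 5′ to 3′, ending at the base before the start, and capitals mark TATAAA, the letters of a TATA box.
DKK1, chr10:52314181-52314280, plus strand: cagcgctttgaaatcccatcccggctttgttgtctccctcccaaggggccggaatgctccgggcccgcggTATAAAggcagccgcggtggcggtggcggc
FZD4, chr11:86955396-86955495, minus strand: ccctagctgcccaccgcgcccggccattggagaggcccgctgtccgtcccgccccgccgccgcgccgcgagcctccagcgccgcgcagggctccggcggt
WNT3, chr17:46818693-46818792, minus strand: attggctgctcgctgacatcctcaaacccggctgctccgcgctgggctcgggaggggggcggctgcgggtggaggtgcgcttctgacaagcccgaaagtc
FZD8, chr10:35642297-35642396, minus strand: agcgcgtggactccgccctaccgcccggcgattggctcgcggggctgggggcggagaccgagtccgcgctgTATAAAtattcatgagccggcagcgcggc

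TATAAA begins 30 bases before the start of DKK1 and 29 before that of FZD8, and is not in the windows of FZD4 and WNT3. The letters of the TCF/LEF motif (CTTTGAT) and of the AP-1 motif (TGAGTCA) were looked for on both strands of the 250 bases before each start, with 38 windows for 29 of the members. CTTTGAT was found in 0 of these windows, and in 2.26% of all 35116 windows. TGAGTCA was found for 1 member, RNF43, 47 bases before one of its starts, and in 4.2% of all windows. TATAAA, added after the sequences were seen, was found for DKK1, FZD8, TCF7 and WNT5B, and in 10.7% of all windows. The TGAGTCA of RNF43 is marked in capitals in the line that follows.
RNF43, chr17:58402722-58402821, minus strand: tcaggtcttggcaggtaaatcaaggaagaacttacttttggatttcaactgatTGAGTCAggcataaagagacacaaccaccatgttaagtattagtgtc

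RNF43, a ubiquitin ligase that removes Frizzled receptors from the surface, and LGR4, a receptor of R-spondins that restrains it, differed in opposite directions. RNF43 was measured at 0.79, 0.07, 1.02 and 0.52 in H460C and at -0.13, 0.09, 0.16 and 0.10 in H460R, and the populations overlapped. The means were 0.60 and 0.06 ± 0.11, with a difference of 0.54 (adjusted p = 0.00411). RNF43 met the detection rule through H460C alone, which favours this direction. With the software's own log ratio RNF43 was at 2.68 in H460C and 0.06 in H460R. In H460R it was well above background on 0 of 4 arrays. LGR4 had a mean of -0.43 in H460C and 0.24 ± 0.046 in H460R, with opposite signs on every array and a difference of -0.67 (adjusted p = 0.000947). A dimmer LGR4 probe gave a difference of -0.07 that did not pass (adjusted p = 0.629).

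In the cytoplasmic relay, NKD2 carried the only called difference. NKD2, which binds Dishevelled and dampens the signal, was at 0.59, 0.99, 0.50 and 1.17 in H460C and at -0.66, -0.14, -0.70 and -0.09 in H460R. The signs were opposite on every array. The means were 0.81 and -0.40 ± 0.0028, with a difference of 1.21 (SE 0.093, adjusted p = 4.68e-05). The second NKD2 probe gave a difference of 0.07 (adjusted p = 0.626), so that the probes disagreed, and the mean of both probes gave 0.64. The Dishevelled proteins DVL2 and DVL3, which carry the signal from Frizzled to the complex, differed by 0.27 and 0.07 without passing (adjusted p = 0.0509 and 0.608).

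In the destruction complex, CTNNB1, the gene of beta-catenin itself, had low ratios in both populations. The H460C arrays gave -2.10 and -0.78, then -2.09 and -0.86, and the H460R arrays -1.47 and -0.26, then -1.59 and -0.33 (Cy3, then Cy5 for each sample). All 8 were below 0, and within each population the arrays with the population in Cy3 were the lower ones. The means were -1.46 in H460C, or 0.364 of the H460 level (FDR 0.105), and -0.91 ± 0.065 in H460R (FDR 0.173), so neither passed. The populations differed by -0.55 (SE 0.097, adjusted p = 0.00283). The second CTNNB1 probe gave -1.11 and -0.35, on the same side of 0.

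Among the partners of beta-catenin, AXIN1, the scaffold of the complex, differed by 0.54 (adjusted p = 0.00306), with -0.29 in H460C and -0.84 ± 0.072 in H460R. Its H460C arrays lay above 0 with H460C in Cy3 (0.35 and 0.22) and below 0 with H460C in Cy5. AXIN2, the inducible relative of AXIN1, stood at 0.81 in H460C and 0.44 ± 0.0060 in H460R, and differed by 0.37 (adjusted p = 0.0134). AXIN2 was well above background on 0 of 8 H460 channels, which favours ratios above 0. By its mean signals it was 1.75-fold or more above H460 in H460C and 1.36-fold or more in H460R (FDR 0.459 and 0.77). The H460R bound equals the mean ratio. These bounds allow for no spread, and single arrays fell below them, with log2 ratios down to 0.30 in H460C and 0.25 in H460R. With the software's own log ratio AXIN2 was at 2.602 in H460C and 1.903 in H460R, so its size depended on the processing. A dimmer second AXIN2 probe gave 0.076 in H460C and 0.017 in H460R. That probe was well above background on 0 arrays in any channel and was not tested. APC and GSK3B lay within 0.13 of 0 in both populations and differed by -0.04 and -0.01, with 95% intervals from -0.26 to 0.17 and from -0.22 to 0.21.

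**Figure D4:**
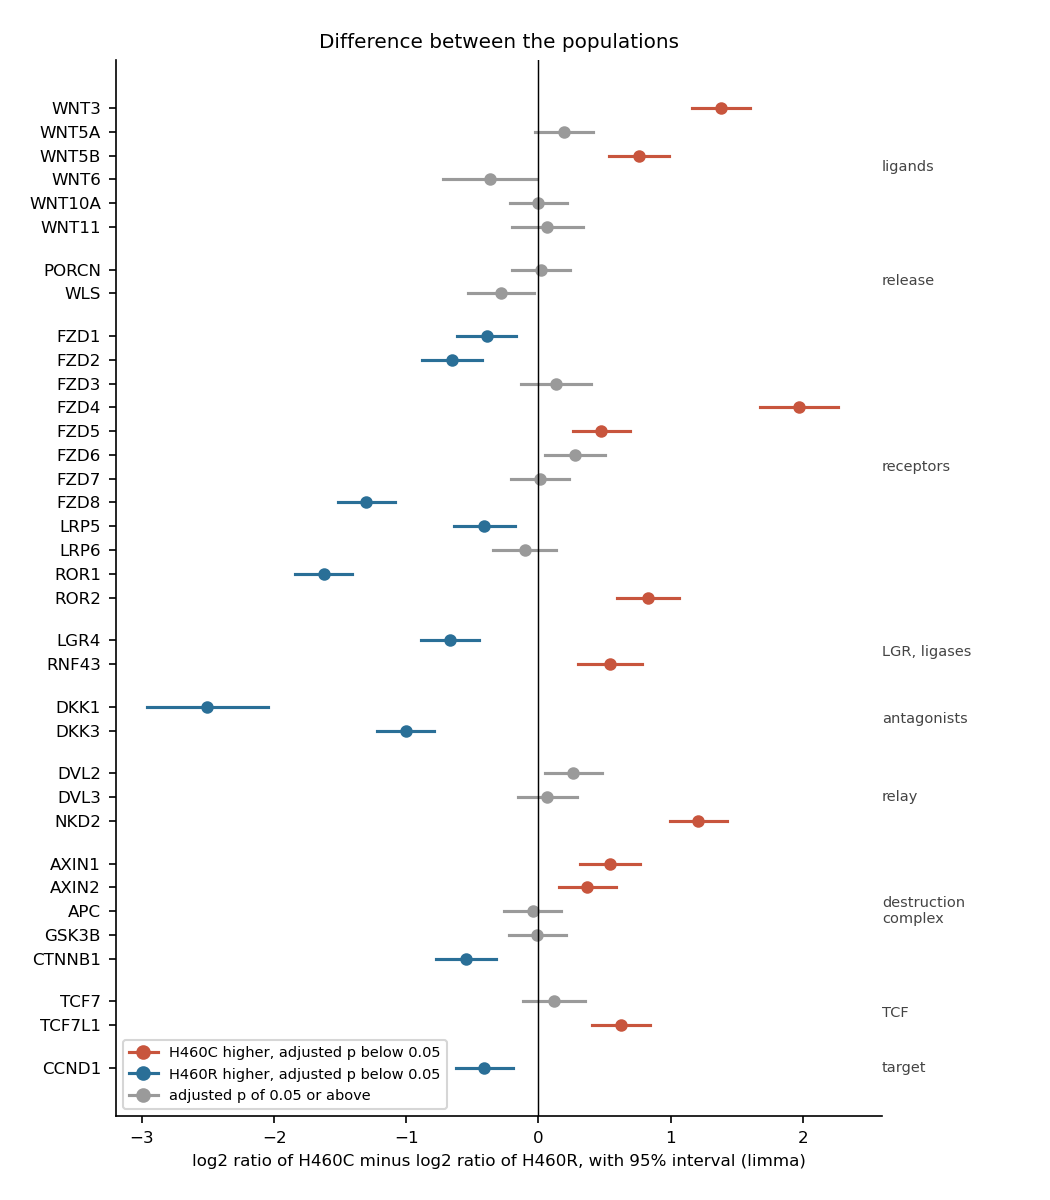
Difference of the log2 ratios, H460C minus H460R, with its 95% interval from limma, for the 35 tested members in the order of their roles (red where H460C was higher and blue where H460R was higher at an adjusted p below 0.05, grey otherwise). DKK1 lies farthest towards H460R at -2.50 and FZD4 farthest towards H460C at 1.97.

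The nuclear TCF factors that could be tested, TCF7L1 and TCF7, had positive means. Both were well above background on 0 of 8 H460 channels. They met the detection rule without H460, which favours that sign in the populations that met it. TCF7L1, often a repressor in stem cells, had means of 0.72 in H460C and 0.10 ± 0.038 in H460R, with a difference of 0.62 (adjusted p = 0.00132). TCF7L1 met the detection rule through H460C alone, which favours the direction of this difference too. With the software's own log ratio TCF7L1 was at 3.66 in H460C and 0.37 in H460R. In H460R it was well above background on 0 of 4 arrays. TCF7 was at 0.34 and 0.22 ± 0.094 with a difference of 0.12 that did not pass (adjusted p = 0.386). By its mean signals TCF7 was 1.26-fold or more above H460 in H460C and 1.17-fold or more in H460R (FDR 0.892 and 1). The H460R bound equals the mean ratio. These bounds allow for no spread, and single arrays fell below them, with log2 ratios down to 0.10 in H460C and 0.08 in H460R. With the software's own log ratio TCF7 was at 1.90 in H460C and 1.45 in H460R.

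CCND1, the gene of cyclin D1, which drives entry into S phase, was higher than in H460 by its mean in both populations. The H460C arrays gave 1.42 and 0.04, then 1.40 and 0.05, and the H460R arrays 1.73 and 0.55, then 1.78 and 0.48 (Cy3, then Cy5). With H460C in Cy5 the ratio was thus at the H460 level. The means were 0.73 in H460C (FDR 0.51) and 1.14 ± 0.0040 in H460R (FDR 0.2), and the difference was -0.41 (SE 0.093, adjusted p = 0.00865). The other CCND1 probes had the same order, with 0.51 and 0.95 at one of them and 0.32 and 0.63 at the dimmest.

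**Figure D5:**
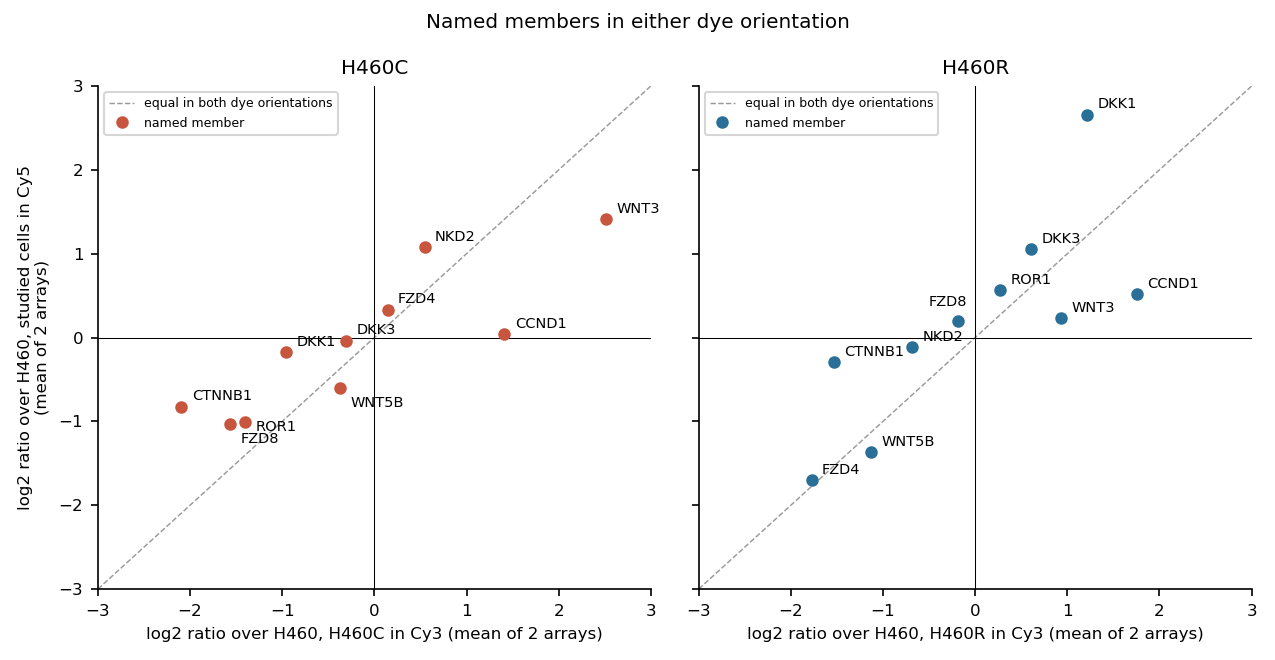
Mean log2 ratio over H460 of the 10 members with full values on the 2 arrays with the population in Cy3 (horizontal axis) against that on the 2 arrays with it in Cy5 (vertical axis), for H460C (left) and H460R (right); the dashed line marks equal values. CCND1 and WNT3 lie below the line and CTNNB1 and DKK1 above it in both populations, while FZD4 lies near it.

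Of the 8 feedback targets in the list (AXIN2, LEF1, TCF7, NKD1, LGR5, RNF43, ZNRF3 and DKK1), 4 could be tested. AXIN2, TCF7 and RNF43 had positive means in both populations and DKK1 had opposite signs in them. But AXIN2, TCF7 and RNF43 were well above background on 0 of 8 H460 channels. They met the detection rule without H460, which favours ratios above 0 in the populations that met it. In H460R, RNF43 was at 0.06 and well above background on 0 of 4 arrays. AXIN2 and RNF43 were higher in H460C than in H460R, DKK1 was higher in H460R, and TCF7 was not called. Limma called 22.4% of all genes as higher in H460C and 23.6% as higher in H460R. RNF43 met the detection rule through H460C alone, which favours its direction here. For the dim genes ROR2, RNF43, AXIN2, TCF7 and TCF7L1, the array of the first H460C sample in Cy5 gave the ratio closest to 0 (0.07 to 0.30), and without that sample 22 members differed between the populations, against 20 with it.

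A further list held 57 other genes of the pathway, of which 55 were on the arrays and 32 were tested. RSPO3, an R-spondin that strengthens Wnt signals through LGR receptors, was the gene of this list that passed Rank Products. It rose in H460R to 2.59 ± 0.066 (FDR 0.00268) and had a mean of 1.72 in H460C (FDR 0.11), with a difference of -0.87 (adjusted p = 0.000305). By size, chosen after their values were seen, KREMEN2, a DKK1 coreceptor, lay past 1 in H460C at 1.63, PRICKLE1, of the planar polarity branch, at -1.54, and the kinase CSNK1E in H460R at -1.22 ± 0.18. Between the populations 10 of the 32 were higher in H460C and 8 higher in H460R, beside the 22.4% and 23.6% of all genes given above. The medians of the list were -0.00 in H460C and -0.08 in H460R. Of 15 other reported Wnt targets, 9 were tested and 0 passed Rank Products in either population (4 in H460C and 1 in H460R at an unadjusted p below 0.05, beside 19.4% and 18.7% of all genes). Between the populations limma called 2 as higher in H460C and 3 as higher in H460R, against the same 22.4% and 23.6%. By size, PPARD at 1.07 and BIRC5, the gene of survivin, at 1.55 lay past 1 in H460C, beside 4.94% of all genes. SOX9 at -0.85 and CD44 at -0.72, also at an unadjusted Rank Products p below 0.05, were lower in H460C. The median of the 9 tested targets was 0.05 in H460C and -0.04 in H460R.

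The labelled cell line was checked against epithelial markers. KRT8, KRT18 and KRT19 were well above background on 8 of 8 H460 channels and EPCAM on 7, while CDH1 was so on 0 of 8 and on 4 of 4 in H460C. In H460C, KRT19 was at -1.15, EPCAM at 1.36 and CDH1 at 0.79, and in H460R all 3 lay between -0.29 and -0.02. Markers of other cells were mixed. Of the fibroblast markers, LUM, DCN and PDGFRB were well above background on 8 of 8 H460 channels. LUM fell in H460C to -3.23 (FDR 0.00437), beside -1.01 ± 0.15 in H460R, PDGFRB stood at 0.20 and -0.45 ± 0.0022, and DCN was well above background on 1 of 4 arrays in H460C and 4 of 4 in H460R. COL1A1 had no matched probe. Of the endothelial markers, PECAM1 was well above background on 0 of 8 H460 channels, 4 of 4 arrays in H460C and 0 of 4 in H460R, with ratios of 0.52 and 0.04. VWF was so on 4 of 8 H460 channels, with 0.04 and -0.07, and CDH5 on 1 of 8 and on 0 arrays of either population. Of the leukocyte markers, PTPRC was well above background on 0 arrays, while CD14 was at -0.90 in H460C and -0.79 in H460R and CD3E at 0.01 and -0.10. Their part in the Wnt results was not tested, and in bulk RNA fewer cells of a type and less RNA per cell cannot be told apart.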

How the data were processed

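Per the labels, RNA was hybridized in dye-swapped pairs to dual-color whole human genome arrays. The authors scanned and extracted them with Feature Extraction (version 10.1.1.1). The analysis started from the deposited median intensities, not normalized, of each spot and its surroundings. Background was corrected with limma's normexp (offset 50), ratios were normalized by loess within arrays, outlier spots were set to missing, and the 43376 spots were averaged into 41000 probes. Probes with at least 0.5 of their spots well above background in every channel of one RNA (26046) and a ratio on all 8 arrays (24373) were tested. The deposited log10 ratios and the authors' processed table of log2 ratios served as alternatives, and 1 array with lost decimal points was divided by 10 to the power of 9. The software's 0 or 1 marks, another deposited column, were taken as they stand. Columns of the table without a sample numbered 0.

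Names came from RefSeq accessions (23958 of 25868 matched). Rank Products took its p-values exactly, over all pairs of 2 ranks, with Benjamini-Hochberg adjustment. Limma (two-sided, 1 residual and 6.62 prior degrees of freedom) compared the populations. Members with values were those called by Rank Products or at least 1 in size in a population or in the difference. The members and lists were chosen with earlier results of these data known. A leukocyte marker of the lists is not reported here. Scripts were tested on simulated data. The software was limma 3.58.1 in R 4.3.3 (with data.table, version 1.17.8). The number of RNA samples limits the precision, with 2 per population, H460C counted as 1 in limma, and 1 H460 RNA.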

Additional observations from a re-analysis of the deposited data

Results flagged for a closer look

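At 6 members every array of H460C lay on the other side of the H460 level than every array of H460R, and limma called the difference between the populations, a pattern held by 10.2% of all genes tested. These were FZD4 (difference 1.97, H460C higher), ROR2 (0.83, H460C higher), NKD2 (1.21, H460C higher), DKK1 (-2.50, H460R higher), ROR1 (-1.62, H460R higher) and LGR4 (-0.67, H460R higher), each on the log2 scale. At NKD2 and LGR4 a second probe did not share the difference, ROR2 was dim in H460 and was tested through H460C alone, which favours its direction, ROR1 was dim in H460C, and the H460 channels of DKK1 and FZD4 differed between the slides. The part of these features in the differences was not tested.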

How the results depend on the processing

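No called direction of a member with full values turned under any alternative run. The count of members called in H460C, 0 with Rank Products, was 2 with the log ratio of the software, 1 with no filter on dim probes, 2 on the arrays with H460C in Cy3, 20 with limma against 0 (20 to 21 without either H460C replicate), 2 with limma's treat at a minimum of 1, and 4 by size. The members behind the first 3 of these that are described with values were ROR1 (-3.88), WNT3 (1.96) and, on the Cy3 arrays, WNT3 (2.51) with CTNNB1 (-2.09). In H460R the count of 2 became 25 with limma (21 to 24 without either H460R replicate) and 4 by size, and 3 with no background subtraction, offset 0, the software's log ratio or no filter, each time with WNT5B. FZD4 lost its call with the mean over probes (-1.12) and DKK1 on the Cy3 arrays (1.22). The 20 differences between the populations became 3 with treat and 7 by size, and 14 to 25 elsewhere. Equal replicate numbers deviated together (r = 0.227 across probes), but with 2 of them and no shared batch in the labels they were not taken as pairs. A replicate block gave 25 differences, and H460C as 2 samples gave 24.

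Over all genes, limma against 0 called 11079 in H460C and 13138 in H460R, treat 749 and 351, and the size rule 1583 and 930, against 216 and 185 with Rank Products. The 8937 differences became 4908 with median centring, 5889 on the Cy5 arrays, 638 with treat and 1509 by size.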
